A study of Mus musculus with 29 samples.

Results

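Hepatic Ly6Chi macrophages from mice that lack RNase T2 were compared with the subset of the same label from wild-type mice. The comparison rested on 6 RNA-seq libraries, 3 from Rnaset2-/- livers and 3 from wild-type livers, out of 29 libraries of splenic and hepatic macrophages and Kupffer cells (KCs). Its members were all autosomal genes with at least 1 RPM (reads of a gene at a library size common to all libraries) in at least 3 of the 6 libraries, which kept 10542 of the 21922 autosomal genes in a table of 23930 genes. No measured difference entered this choice. The series as a whole asked how macrophages of the spleen and liver differ in the absence of RNase T2.

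Rnaset2-/- mice lack both Rnaset2a and Rnaset2b in every cell, and the wild-type animals were purchased C57BL/6 mice. The animals were untreated, and their age is not given in the labels. The sort is labelled Ly6C high CD11b(+) Ly6G(-) SiglecF(-) NK1.1(-) for both genotypes. The methods of the study also name F4/80 and CD16.2, the protein of Fcgr4, among the antigens used to sort hepatic macrophages. The labels number the replicates but do not say whether a library came from 1 mouse or from a pool, so the p-values measure the spread between these libraries, which may be partly technical.

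RNase T2 is an acid ribonuclease of the endolysosome that degrades single-stranded RNA. RNA fragments in that compartment are ligands for endosomal Toll-like receptors (TLRs), which signal through MyD88 to NF-κB and interferon regulatory factors. Ly6Chi cells are the classical monocytes and their recent descendants in tissue. In the liver such cells can mature into Ly6Clow macrophages and, when the niche is open, into cells that resemble KCs, the resident macrophages of the sinusoids.

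Before the results, 3 properties of the libraries need to be stated. The wild-type libraries held 11179177 to 12956956 reads and the Rnaset2-/- libraries 12947665 to 13027220 reads, so that 3 reads, taken as the limit of detection, corresponded to 0.230 to 0.268 RPM and cover counting error only. Sex cannot be told apart from genotype here, because the Rnaset2-/- libraries held at most 0.154 RPM of Xist and 150.1 to 250.6 RPM of Y-linked genes. The wild-type libraries held 321.5 to 539.3 RPM of Xist, and 0, 29 and 42.1 RPM of Y-linked genes in libraries 1, 2 and 3. Wild-type libraries 2 and 3 thus held both kinds of transcript, unlike library 1, and the reason was not tested. Rnaset2-/- library 1 stood apart from libraries 2 and 3: 497 genes differed by more than 4-fold between library 1 and the mean of the other two, against 28 genes between libraries 2 and 3. Counts over the gene lists are therefore also given without Rnaset2-/- library 1.

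The sorted cells carried the transcripts of myeloid cells in both genotypes. Lyz2, which encodes lysozyme M, was at 29380.0, 21216 and 31977 RPM in the wild-type libraries and at 27316, 17591 and 17450.0 RPM in the Rnaset2-/- libraries. The CD11b gene Itgam was at 1282 to 1828 RPM and at 841 to 1343 RPM. The CSF1 receptor gene Csf1r was at 807 to 1028 RPM and at 1139.7 to 1363 RPM, with a log2 difference of 0.17 between the genotypes (SE 0.20, adjusted p = 0.556).

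In Rnaset2-/- Ly6Chi macrophages 1670 of the 10542 genes were higher (15.8%) and 1558 were lower (14.8%) than in wild-type cells, with a change above 1.5-fold and limma's adjusted p under 0.05. By more than 4-fold, 489 genes were higher and 218 were lower. The largest falls were those of Ccl24, Cd83 and Thbs1, and the largest rises those of Cd5l, a gene of tissue macrophages, Cd3e, a gene of T cells, and Sparc. On RPM as deposited, every Rnaset2-/- library lay above every wild-type library for 3876 genes (36.8%) and below for 1485 genes (14.1%). The balance depended on scaling. Relative log expression factors, which were used here, centred the members at a median log2 difference of 0.02 and placed 51.7% of the calls on the higher side. RPM without these factors had a median of 0.31, and 2583 genes were higher and 860 lower, a share of 75.0% on the higher side. Without Rnaset2-/- library 1, 10072 genes passed the filter, of which 1801 were higher (17.9%) and 1940 lower (19.3%). Of the calls made with all 6 libraries, 1267 of the higher and 1454 of the lower genes were called in the same direction without it, and 0 in the opposite direction. The counts were smaller without Rnaset2-/- library 2 (661 higher and 972 lower), Rnaset2-/- library 3 (742 and 1015), wild-type library 1 (853 and 864) or wild-type library 3 (909 and 857).

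**Figure D1:**
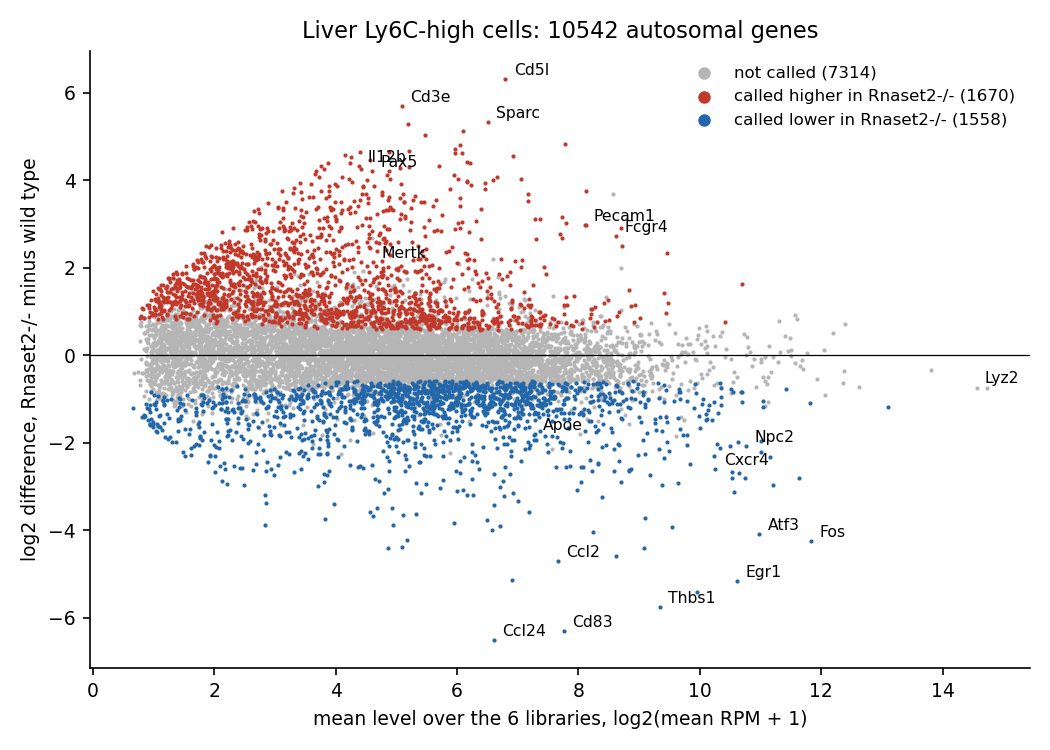
Each point is 1 of 10542 autosomal genes, with its mean level over the 6 libraries on the x axis, as log2(mean RPM + 1), and the log2 difference, Rnaset2-/- minus wild type, on the y axis. Red points are the 1670 genes called higher and blue points the 1558 called lower; Fos, Egr1 and Atf3 fell at high levels, whereas Cd5l and Cd3e rose from about 1 RPM or less.

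The calls were spread over the autosomes. The share of tested genes that was called lay between 26.7% on chromosome 8 and 33.6% on chromosome 6, beside 30.6% for all members.

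Immediate early genes were lower in Rnaset2-/- Ly6Chi macrophages almost throughout. These genes encode transcription factors and feedback regulators that are transcribed within minutes of a stimulus, and many of them are also known to rise while tissue is dissociated at warm temperature. Of 47 listed genes, 43 passed the filter, and 36 were lower and 0 higher, beside 14.8% and 15.8% of all members. The median log2 difference was -2.03 beside 0.02 for all members. When Rnaset2-/- library 1 was left out, the counts were 38 lower and 0 higher, with a median of -1.98. The shares of all members were then 19.3% and 17.9%. The summed level of the list was 43325 to 49002 RPM in the wild-type libraries and 7213 to 13386 RPM in the Rnaset2-/- libraries, so the groups did not overlap. Wild-type KCs held 4763 to 6320.0 RPM of the same genes.

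Fos, the partner of Jun in the AP-1 factor, was at 7592, 5993 and 6954 RPM in wild-type libraries 1 to 3 and at 421, 337 and 635 RPM in Rnaset2-/- libraries 1 to 3. Its log2 difference was -4.24 (SE 0.28, adjusted p = 0.00016), and every Rnaset2-/- library was below every wild-type library. Atf3, a stress-induced repressor of inflammatory genes, was at 3372, 3867 and 4019.7 RPM and at 259, 237 and 340.0 RPM. Its log2 difference was -4.08 (SE 0.21, adjusted p = 8.85e-05). Egr1 fell by 5.17 and Fosb by 5.13 on the log2 scale. Jun and Junb fell less, by 2.30 and 1.96. The 7 tested genes of the list that were not called included Myc, with a log2 difference of 1.02, and Arc, with -0.13, both named here after their values were seen. Beyond the list, the long noncoding RNA Neat1, the scaffold of nuclear paraspeckles, was at 2192, 2030.3 and 1510.1 RPM in wild-type and at 29.2, 51.3 and 105 RPM in Rnaset2-/- libraries, a log2 difference of -5.42 (SE 0.37, adjusted p = 0.00016). Ifrd1, a transcriptional coregulator, fell by 4.40.

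Promoter sequences of RefSeq (GRCm38.p6), which run from 250 bases before to 50 after a gene's start, were searched on both strands for the cAMP response element TGACGTCA, a site bound by CREB and ATF factors that several immediate early genes carry. It was held by 1.79% of the 32851 promoters in the table. Among genes with a sequence, 4 of 31 lower immediate early genes held it (12.9%) and 0 of 3 of the others. Over all members, the shares were 5.05% of the genes called lower, 2.22% of those called higher and 3.49% of those not called. A gene counted as holding the motif if any of its promoters did, so shares of genes are not comparable with the share of promoters. The 4 genes were Dusp1, Btg2, Maff and Ppp1r15a, which encode a MAP kinase phosphatase, an antiproliferative factor, a small Maf factor and a phosphatase subunit of the stress response. They are named because of the motif, a choice made after their values were seen. They fell by 3.12, 2.03, 3.33 and 2.55 on the log2 scale. The stretches around the motif, shown so that its place can be compared with the drop in transcript, lie at chr17:26508583-26508640 on the minus strand for Dusp1, chr1:134079289-134079346 on the minus strand for Btg2, chr15:79347466-79347519 on the plus strand for Maff and chr7:45526269-45526305 on the minus strand for Ppp1r15a. They are upstream of the annotated start, and the first base of the motif lies between -166 and -12 from it. Capitals mark the motif, 5′ to 3′ on the strand of the gene.
Dusp1: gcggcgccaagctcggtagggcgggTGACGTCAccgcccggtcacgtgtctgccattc
Btg2: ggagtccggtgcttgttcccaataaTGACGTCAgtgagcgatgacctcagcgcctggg
Maff: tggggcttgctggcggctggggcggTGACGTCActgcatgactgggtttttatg
Ppp1r15a: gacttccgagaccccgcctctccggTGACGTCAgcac
A match of letters is a description of the promoter and not a measured binding site.

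**Figure D2:**
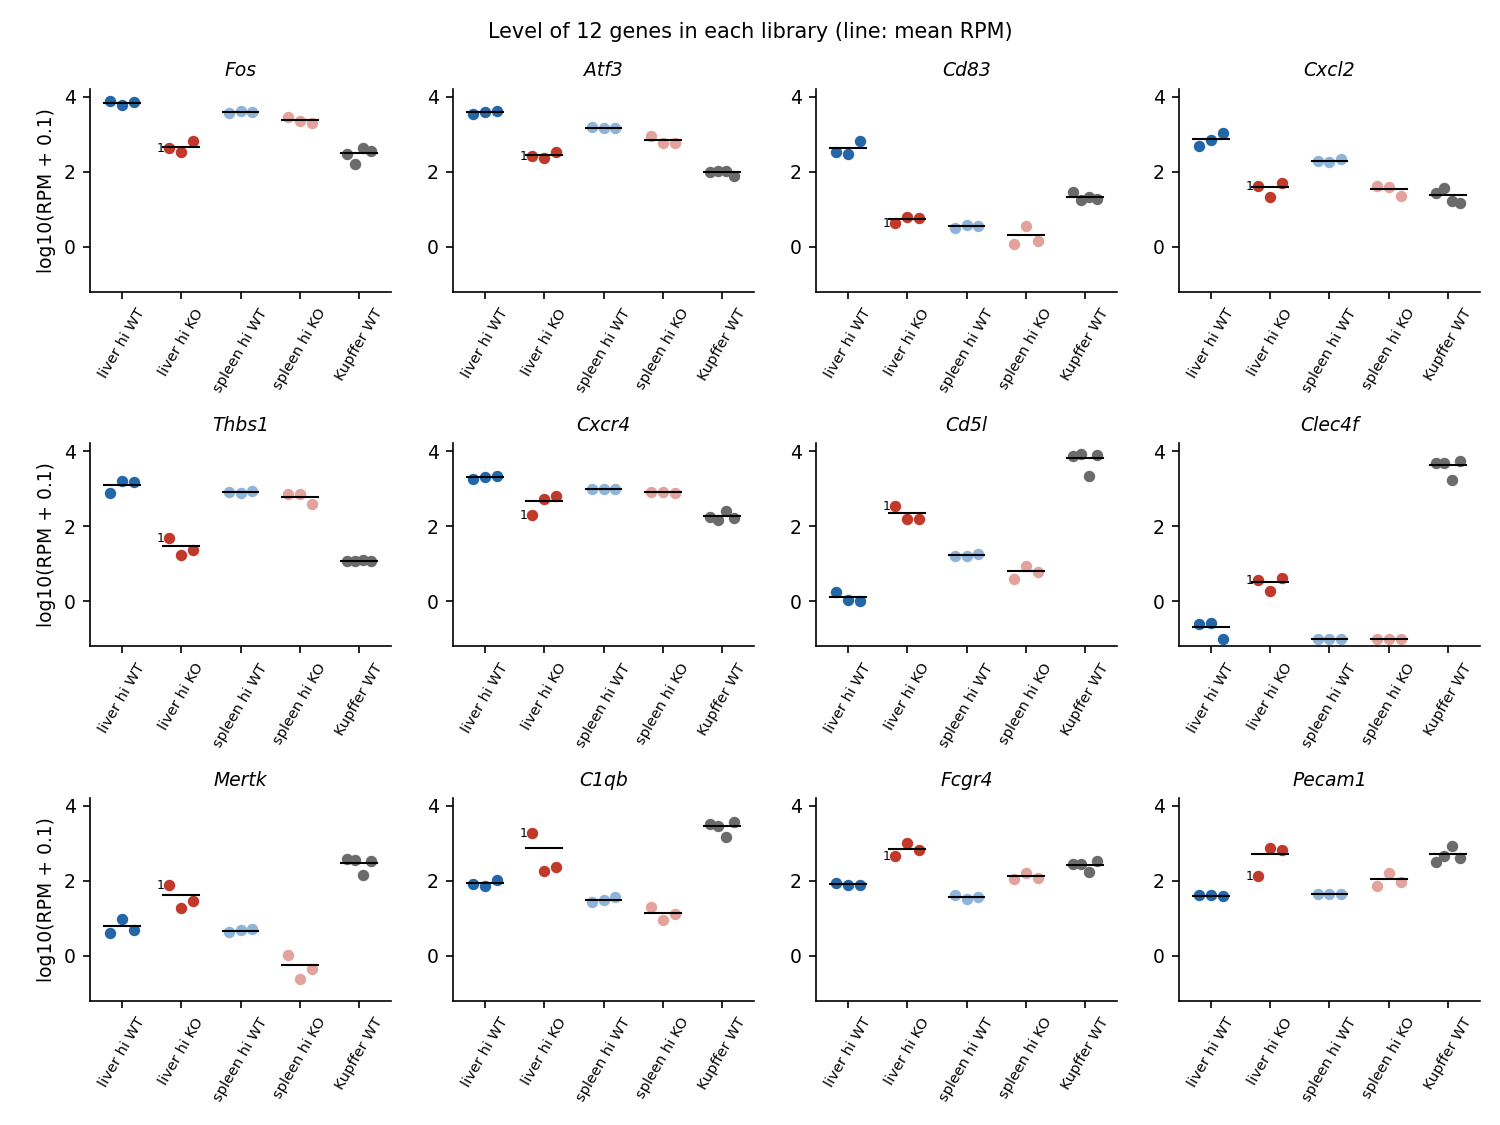
Level of 12 genes in each library of 5 groups, as log10(RPM + 0.1), with a line at the mean RPM; liver hi and spleen hi are Ly6Chi macrophages, KO is Rnaset2-/-, WT is wild type and the digit 1 marks Rnaset2-/- liver library 1. Fos, Atf3, Cd83, Cxcl2, Thbs1 and Cxcr4 were lower in all 3 Rnaset2-/- liver libraries than in wild type, and Clec4f stayed far below its level in Kupffer cells.

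Inflammatory genes regulated by NF-κB were also lower, with exceptions in both directions. Of 55 listed genes, 51 passed the filter. Of these, 25 were lower and 3 higher, beside 14.8% and 15.8% of all members, and the median log2 difference was -1.66. Leaving out Rnaset2-/- library 1 gave 37 lower and 3 higher genes, beside 19.3% and 17.9% of all members, with a median of -2.06. That library held 20619 RPM of the list in sum, as much as the wild-type libraries (20255 to 25264 RPM), whereas Rnaset2-/- libraries 2 and 3 held 7552 and 8846 RPM.

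Cd83, a surface protein of activated antigen-presenting cells, was at 324, 301 and 659 RPM in wild-type and at 4.14, 6.10 and 5.62 RPM in Rnaset2-/- libraries. The log2 difference was -6.30 (SE 0.32, adjusted p = 8.85e-05), with no overlap. Chemokine genes fell with it. Ccl2, which attracts CCR2-expressing monocytes, went from 334, 342 and 473 RPM to 32.8, 11.9 and 12.1 RPM, a log2 difference of -4.71 (SE 0.42, adjusted p = 0.000434). Cxcl2, which attracts neutrophils, went from 484, 711 and 1038 RPM to 42.3, 20.9 and 50.2 RPM, a log2 difference of -4.60 (SE 0.39, adjusted p = 0.000359).

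Cytokine genes were lower, not called or, in the case of Il12b, higher. Tnf was at 12.9, 31.0 and 20.1 RPM in wild-type and at 11.4, 3.40 and 3.0 RPM in Rnaset2-/- libraries, and its log2 difference of -2.08 (SE 0.51, adjusted p = 0.0191) was not called without Rnaset2-/- library 2 or 3 or wild-type library 2 or 3 (adjusted p = 0.0608 to 0.0704). Il6 was at 16.6, 22.6 and 29.6 RPM and at 3.22, 0.850 and 8.46 RPM, a log2 difference of -2.74. That size is given without a test because Il6 passed the filter only through the wild-type libraries. Il1b went from 1234, 1940.3 and 1385 RPM to 644, 693 and 659 RPM, a log2 difference of -1.48 (SE 0.22, adjusted p = 0.00291). Il10, which encodes an anti-inflammatory cytokine, was at 9.11, 32.2 and 30.2 RPM and at 3.22, 7.03 and 9.62 RPM. The Il10 groups overlapped, and its log2 difference of -1.91 (SE 0.49, adjusted p = 0.0228) was not called without Rnaset2-/- library 2 or wild-type library 2 or 3 (adjusted p = 0.0577 to 0.0895). Ifnb1 was low in both genotypes, at 3.78 to 6.98 RPM and at 2.70 to 5.69 RPM, with a log2 difference of -0.68 (SE 0.31, adjusted p = 0.135). Il12b, the p40 subunit of IL-12 and IL-23, rose from 0.154, 1.00 and 0.895 RPM to 23.5, 39.5 and 54.1 RPM, a log2 difference of 4.32. That size is given without a test because Il12b passed the filter only through the Rnaset2-/- libraries. Ccl5 and Traf1 were the other higher genes of the list, with log2 differences of 2.35 and 1.17, and are named because there were only 3.

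The same promoters were searched for GGGNNTTTCC, a form of the κB site bound by NF-κB dimers. It was held by 1.63% of all promoters. Counted by gene, it was held by 2.91% of the genes called lower, 1.74% of those called higher and 2.03% of those not called. The share of promoters is not comparable with these shares of genes. In the NF-κB list, 7 of 18 lower genes with a sequence held it (38.9%), and 3 of 20 of the other tested genes (15%). The list was drawn up for regulation by NF-κB, so its share is a description of how it was chosen. The 7 genes were Il6, Cxcl1, Cxcl2, Cxcl3, Tnfaip3, Nfkbia and Rel, which encode a cytokine, 3 neutrophil chemokines, 2 inhibitors of NF-κB and an NF-κB subunit. Apart from Il6 and Cxcl2 they are named for the motif, after their values were seen. Cxcl1 and Cxcl3 were low, at 7.18 to 15.5 RPM and 2.31 to 10.5 RPM in wild type, and fell by 2.73 and 2.94 on the log2 scale. Tnfaip3, Nfkbia and Rel fell by 2.64, 2.07 and 2.12. Their upstream stretches lie on the plus strand at chr5:30013045-30013104 for Il6, chr5:90891131-90891208 for Cxcl1, chr5:90903777-90903855 for Cxcl2 and chr5:90786003-90786062 for Cxcl3, and on the minus strand at chr10:19015411-19015447 for Tnfaip3, chr12:55492648-55492701 for Nfkbia and chr11:23771026-23771085 for Rel. Capitals mark the motif in either orientation, 5′ to 3′ on the strand of the gene. Cxcl1 and Cxcl2 each held 2 copies in these stretches.
Il6: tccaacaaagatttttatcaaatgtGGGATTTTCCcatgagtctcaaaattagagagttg
Cxcl1: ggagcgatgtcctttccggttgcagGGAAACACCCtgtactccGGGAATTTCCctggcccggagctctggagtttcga
Cxcl2: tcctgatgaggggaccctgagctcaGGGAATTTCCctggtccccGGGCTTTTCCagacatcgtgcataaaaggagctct
Cxcl3: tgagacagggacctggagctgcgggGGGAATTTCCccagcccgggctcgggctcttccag
Tnfaip3: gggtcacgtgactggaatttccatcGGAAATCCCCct
Nfkbia: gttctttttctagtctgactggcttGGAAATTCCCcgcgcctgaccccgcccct
Rel: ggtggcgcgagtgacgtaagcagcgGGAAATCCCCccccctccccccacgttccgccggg
The κB sequences of the 3 chemokine genes lie within 1 chemokine cluster of chromosome 5, and genes of a cluster are not independent of each other.

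Interferon-stimulated genes were lower or not called, and none was higher. Of 42 listed genes, 38 passed the filter, and 15 were lower and 0 higher, beside 14.8% and 15.8% of all members. The median log2 difference was -0.57, and -0.25 on RPM as deposited. With Rnaset2-/- library 1 left out, 22 were lower, beside 19.3% of all members, with a median of -0.80. That library held 6170 RPM of the list in sum, within the 5784 to 6317 RPM of the wild-type libraries. Rnaset2-/- libraries 2 and 3 held 4434 and 4147 RPM. Mx1, an antiviral GTPase, was at 115, 108 and 96.6 RPM in wild-type and at 58.8, 50.3 and 46.2 RPM in Rnaset2-/- libraries, a log2 difference of -1.34 (SE 0.20, adjusted p = 0.00286). Isg20, an interferon-induced exonuclease, went from 62.1, 67.4 and 70.4 RPM to 24.6, 24.9 and 32.7 RPM, a log2 difference of -1.57 (SE 0.17, adjusted p = 0.000923). Mx2, Trim30a and Xaf1 fell by 1.71, 1.43 and 1.41. Ifih1, Oas1a and Rsad2, an RNA sensor, an RNA-activated synthetase and the enzyme viperin, had log2 differences of -0.34, -0.29 and 0.21 and were not called (adjusted p = 0.178, 0.334 and 0.789). The letters TTTCNNTTTC, the core shared by interferon-stimulated response elements, were held by 3 of 10 lower genes with a sequence (30%) and by 10 of 19 of the others (52.6%). Over all members they were held by 4.53% of the genes called lower and 3.82% of those not called.

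Of 18 tested genes for receptors and adaptors that read nucleic acids in endosomes, 5 were lower and 3 higher, beside 14.8% and 15.8% of all members, so the list gave no result as a group, with a median log2 difference of -0.13 that became 0.19 on RPM as deposited; 4 further genes of the list lie on the X chromosome and were not members. The counts were 5 lower and 4 higher without Rnaset2-/- library 1, beside 19.3% and 17.9% of all members. Unc93b1, the chaperone that carries these receptors to endosomes, was at 1194, 1141 and 1302 RPM in wild-type and at 2151, 1323 and 1104 RPM in Rnaset2-/- libraries and did not differ beyond the spread (log2 difference -0.04, SE 0.33, adjusted p = 0.931). Tlr9, a DNA receptor, was lower by 1.09, and Irak2, a kinase downstream of MyD88, by 1.12. Tlr3, a receptor of double-stranded RNA, was at 3.16, 6.67 and 1.88 RPM and at 17.6, 15.7 and 10.9 RPM, a log2 difference of 1.51 (SE 0.39, adjusted p = 0.0234). Tlr3 was not called without Rnaset2-/- library 2 or wild-type library 1 or 3 (adjusted p = 0.0713 to 0.0820) or with no filter (0.0537). Tlr9 was not called without Rnaset2-/- library 2 or 3 or wild-type library 1 or 3 (adjusted p = 0.108 to 0.124), on RPM as deposited (0.0635), with edgeR (0.052) or with no filter (0.0578), and Irak2 not without Rnaset2-/- library 2 (adjusted p = 0.0539).

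Inflammasome genes fell or were not called. Of 13 tested genes, 6 were lower and 0 higher, beside 14.8% and 15.8% of all members, with a median log2 difference of -0.88. Without Rnaset2-/- library 1, 9 were lower, beside 19.3% of all members. Nlrp3, the sensor of the best known inflammasome, went from 148, 279 and 252 RPM to 92.7, 43.3 and 67.8 RPM, a log2 difference of -2.05 (SE 0.36, adjusted p = 0.00524). Casp4, the caspase that senses intracellular lipopolysaccharide, was at 55.0, 13.1 and 64.6 RPM in wild-type and at 4.14, 1.39 and 2.54 RPM in Rnaset2-/- libraries. Its level in wild-type library 2 was far below that in libraries 1 and 3, and its log2 difference was -3.66 (SE 0.61, adjusted p = 0.00454). Trpc4ap, Pfdn5, Qrich1 and Chuk, which are not inflammasome genes, had the same order of wild-type libraries. Whether the fall of Casp4 belongs to that pattern was not tested.

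Genes of classical monocytes were lower in part. Of 21 tested genes, 10 were lower and 1 higher, beside 14.8% and 15.8% of all members, with a median log2 difference of -0.84. Without Rnaset2-/- library 1, 14 were lower, beside 19.3% of all members. Ccr2, the receptor by which monocytes leave the bone marrow, was at 558, 548 and 352 RPM in wild-type and at 462, 401 and 336 RPM in Rnaset2-/- libraries. The groups overlapped, and the log2 difference of -0.58 (SE 0.26, adjusted p = 0.122) was not called, although it was without Rnaset2-/- library 1 (-0.75, adjusted p = 0.0192).

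Thbs1, which encodes the matrix protein thrombospondin 1, fell most in this list, from 760.2, 1578 and 1476 RPM to 48.2, 16.6 and 23.3 RPM. Its log2 difference was -5.76 (SE 0.45, adjusted p = 0.000262). F13a1, a coagulation factor subunit, and Ccl9, a chemokine, fell by 2.15 and 2.02. Fn1, the fibronectin gene, fell by 2.19 (adjusted p = 0.0198) but was not called without wild-type library 1 or 3 (adjusted p = 0.0654 and 0.0784). The single higher gene, named for that reason, was Hp, which encodes haptoglobin, with a log2 difference of 0.75.

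Genes of patrolling monocytes, the nonclassical cells that crawl along vessels, depended on Rnaset2-/- library 1. With all libraries 2 of 18 tested genes were higher and 1 lower, beside 15.8% and 14.8% of all members, with a median log2 difference of -0.06. Without library 1, 10 were higher and 1 lower, beside 17.9% and 19.3% of all members, with a median of 0.75. The summed level was 5584 RPM in Rnaset2-/- library 1, 16786 and 16242 RPM in libraries 2 and 3, and 12755 to 13841 RPM in the wild-type libraries. Cx3cr1, the fractalkine receptor, shows the pattern, at 75.1, 68.9 and 60 RPM in wild-type and at 26.4, 134 and 143 RPM in Rnaset2-/- libraries. Its log2 difference was -0.08 (SE 0.53, adjusted p = 0.925) with library 1 and 0.65 (adjusted p = 0.0124) without it. Cd300e, an activating receptor of nonclassical monocytes, rose from 21.1, 13.3 and 7.25 RPM to 52.7, 452 and 309.8 RPM, a log2 difference of 3.53 (SE 0.70, adjusted p = 0.0091). Nr4a1, the nuclear receptor needed for nonclassical monocytes and also an immediate early gene, went from 5078, 4717 and 5277 RPM to 203, 1516 and 2281 RPM. Its log2 difference of -2.81 (SE 0.74, adjusted p = 0.0245) was not called without any 1 of the 3 wild-type libraries (adjusted p = 0.0651 to 0.0835) or with no filter (0.0554).

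Fcgr4, which encodes the Fc receptor CD16.2, rose from 88.3, 77.2 and 74.6 RPM to 445, 1021 and 639.8 RPM, a log2 difference of 2.72 (SE 0.27, adjusted p = 0.000634). CD16.2 was among the antigens of the hepatic sort in the study's methods, so this level is not independent of the gate. Those methods print the same Ly6Clow CD16.2-high gate for both hepatic Rnaset2-/- subsets, whereas the labels call these libraries Ly6C high, and which gate gave them could not be settled here. The other 2 higher genes of the list of Fc receptors and related molecules, of 8 tested, were Cd72, an inhibitory coreceptor, from 8.95, 15.9 and 10.9 RPM to 93.0, 132 and 130.5 RPM, and Fcrl5, from at most 0.232 RPM to 11.6, 58.4 and 30.5 RPM. Cd72 and Fcrl5 are also genes of B cells, whose markers rose in the same libraries, and the part of B cells in these values was not tested. The inhibitory receptor Fcgr2b and the activating receptor Fcgr1 were not called (log2 differences -0.92 and -0.38, adjusted p = 0.0734 and 0.466), and both were lower without Rnaset2-/- library 1 (-1.22 and -0.79, adjusted p = 0.00416 and 0.0115).

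Among growth factor and chemokine receptors, 6 of 25 tested genes were lower and 4 higher, beside 14.8% and 15.8% of all members. The median log2 difference was -0.25, or 0.06 on RPM as deposited. Without Rnaset2-/- library 1, 9 were lower and 5 higher, beside 19.3% and 17.9% of all members. Cxcr4, the receptor that retains cells in the bone marrow, went from 1763, 2019 and 2199 RPM to 202, 527 and 629.8 RPM, a log2 difference of -2.60 (SE 0.36, adjusted p = 0.0022). Notch1 fell from 48.6, 41.2 and 72.7 RPM to 18.6, 17.2 and 27.2 RPM.

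Transcription factors of the myeloid lineage were lower in 9 and higher in 1 of 24 tested genes, with a median log2 difference of -0.76. The shares of all members were 14.8% and 15.8%. Without Rnaset2-/- library 1 the counts were 13 and 2, beside 19.3% and 17.9% of all members. Cebpa, which directs the granulocyte and monocyte lineage, went from 218, 227 and 253 RPM to 81.1, 71.0 and 72.8 RPM, a log2 difference of -1.94 (SE 0.18, adjusted p = 0.000544). Id3, needed for KC development, fell by 2.42. Spi1, the gene of PU.1, and Irf8 and Cebpb had log2 differences of -0.68, 0.75 and -0.49 and were not called (adjusted p = 0.0616, 0.211 and 0.2).

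Part of the genes of KC identity were higher in Rnaset2-/- Ly6Chi macrophages. Of 32 listed genes, 24 were tested, 11 were higher, 3 lower and 10 not called, and the median log2 difference was 1.74. The shares of all members were 15.8% higher and 14.8% lower. Some members, such as Clec4f and Cd207, passed the filter only through the Rnaset2-/- libraries in which they were high, so the count and the median describe the list and do not test it. Dnase1l3, Lyve1 and Cdh5 are also markers of sinusoidal endothelium. Without them 8 of 21 genes were higher and 3 lower, with a median of 1.24. Without Rnaset2-/- library 1, 18 genes passed the filter, and 7 were higher and 2 lower, beside 17.9% and 19.3% of all members. Their median was 0.51, which is not over the same genes. The summed level was 1320.3 to 1940.4 RPM in wild-type, 1959 to 2580.4 RPM in Rnaset2-/- and 11149 to 26250.0 RPM in KC libraries.

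Cd5l, which encodes the apoptosis inhibitor of macrophages (AIM), had the largest rise of all members, from 1.62, 1.00 and 0.895 RPM to 348, 152 and 159 RPM. Its log2 difference was 6.32, and 5.88 without Rnaset2-/- library 1. These sizes are given without a test because Cd5l passed the filter only through the Rnaset2-/- libraries, and they depend on the 1 added to RPM. The gene lies on chromosome 3 from 87357881 to 87371073 (GRCm38). Its mean in Rnaset2-/- Ly6Chi macrophages was 3.46% of its mean in KCs. Clec4f, the lectin most restricted to KCs, was at 0.154, 0.167 and 0 RPM in wild-type and at 3.53, 1.78 and 4.08 RPM in Rnaset2-/- libraries, which is given without a test because the gene entered through the latter. Its mean there was 0.0745% of its mean in KCs. Timd4, a marker of long-lived KCs, did not pass the filter. Slc40a1, the iron exporter ferroportin, rose from 1.54, 5.01 and 2.59 RPM to 49.1, 36.5 and 34.8 RPM, a log2 difference of 3.15 (SE 0.35, adjusted p = 0.00099). Cd207, the lectin langerin, was at 0 RPM in each wild-type library and at 6.99, 5.95 and 7.31 RPM in Rnaset2-/- libraries, at least 25.1-fold higher than 3 reads in the shallowest wild-type library; it is named here after its values were seen.

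**Figure D3:**
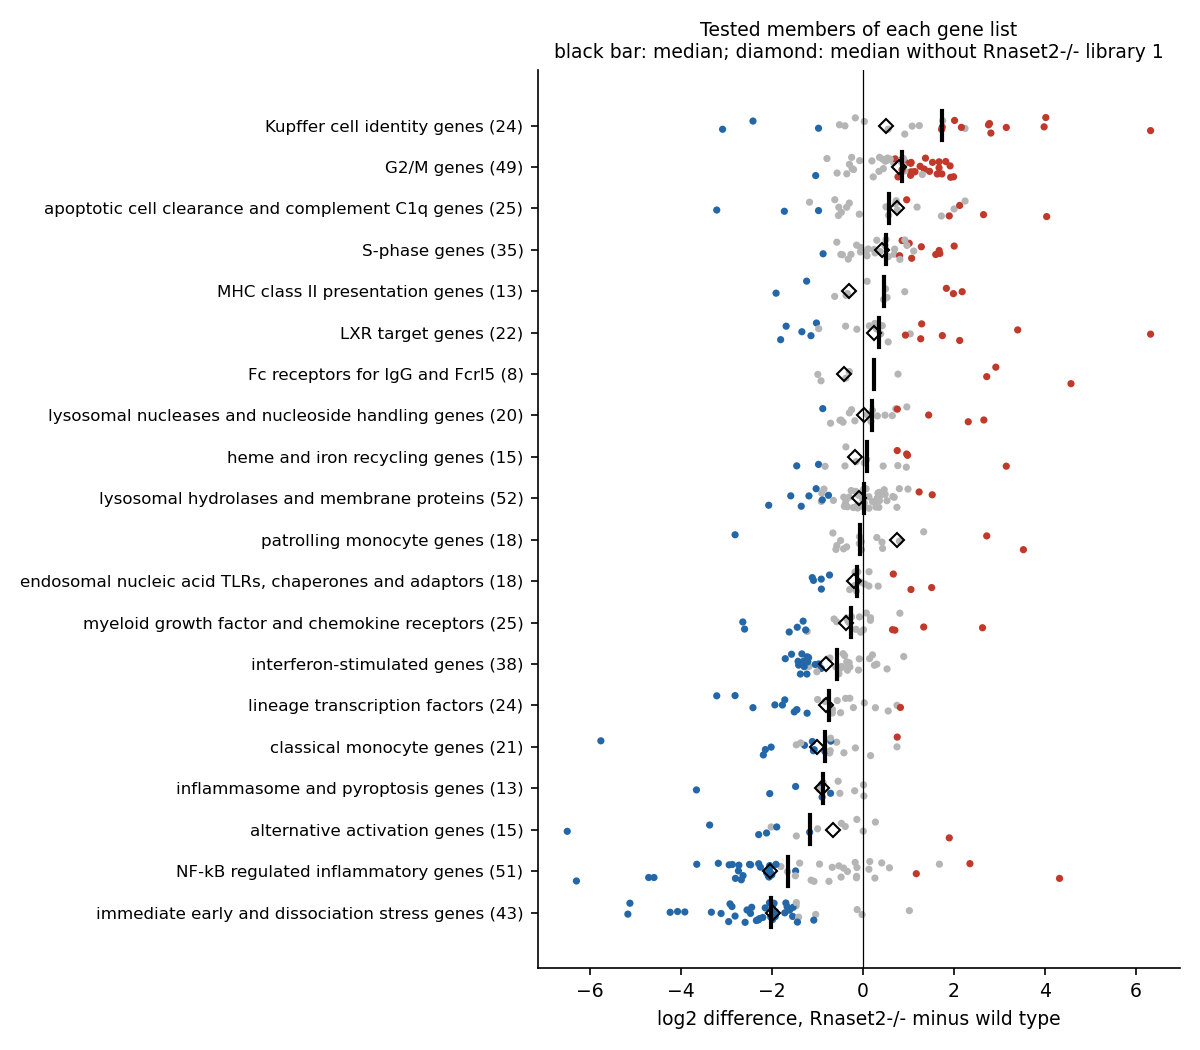
Each point is a tested gene of the list named on the left, with the number tested in brackets, and the x axis is the log2 difference, Rnaset2-/- minus wild type; red is called higher, blue called lower and grey not called. The black bar is the median and the diamond the median without Rnaset2-/- library 1, which hardly moved for immediate early genes (-1.98 against -2.03). For the Kupffer cell list it was 0.51 over 18 genes against 1.74 over 24. The filter was applied again without that library, so the Kupffer medians are not over the same genes and cannot be compared directly.

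The liver X receptors (LXRs), nuclear receptors of oxysterols, drive several KC genes. Calls among their targets, as among all members, went in both directions. Of 22 tested genes, 7 were higher and 5 lower, beside 15.8% and 14.8% of all members, with a median log2 difference of 0.34. Without Rnaset2-/- library 1, 9 were higher and 6 lower, beside 17.9% and 19.3% of all members. Nr1h3, which encodes LXRα, was at 42.5, 48.6 and 51.9 RPM in wild-type and at 145, 74.7 and 61.7 RPM in Rnaset2-/- libraries. After scaling its log2 difference was 0.55 (SE 0.36, adjusted p = 0.267). Rxra, which encodes the partner of LXRα, had a log2 difference of -0.38 (SE 0.23, adjusted p = 0.234).

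Scd1, a fatty acid desaturase, rose from 2.70, 3.50 and 2.86 RPM to 30.5, 51.6 and 80.8 RPM, a log2 difference of 3.40 (SE 0.30, adjusted p = 0.000393). Abca1, which exports cholesterol, went from 25.8, 41.6 and 39.4 RPM to 176, 66.0 and 107 RPM, and its log2 difference of 1.29 (SE 0.39, adjusted p = 0.0386) was not called without Rnaset2-/- library 3 or any 1 of the wild-type libraries (adjusted p = 0.0804 to 0.138), with the replicate number as a block (0.0641) or with no filter (0.0640). Abcg1 and Srebf1 had log2 differences of -0.14 and 0.39 and were not called (adjusted p = 0.559 and 0.121). Apoe, which encodes apolipoprotein E, was at 237, 196 and 244 RPM in wild-type and at 112, 56.7 and 77.0 RPM in Rnaset2-/- libraries. It fell by 1.81 on the log2 scale (SE 0.30, adjusted p = 0.0043), opposite to Scd1 and Cd5l.

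Among genes for the clearance of apoptotic cells and complement C1q, 5 of 25 tested genes were higher and 3 lower, shares near the 15.8% and 14.8% of all members, with a median log2 difference of 0.56. Without Rnaset2-/- library 1, 24 genes passed the filter, and 12 were higher and 5 lower, beside 17.9% and 19.3% of all members. The share of higher genes thus depended on that library. Mertk, a receptor for apoptotic cells, rose from 3.94, 9.60 and 4.74 RPM to 75.1, 18.8 and 29 RPM, a log2 difference of 2.13 (SE 0.54, adjusted p = 0.0214) that was not called without wild-type library 1 or 3 (adjusted p = 0.0831 and 0.0807). Axl, a related receptor, went from 96.4, 114 and 113 RPM to 134, 31.8 and 46.7 RPM. Library 1 lay above and libraries 2 and 3 below all wild-type libraries, and the log2 difference of -1.18 (SE 0.51, adjusted p = 0.114) became -1.82 (adjusted p = 4.30e-05) without library 1. C1qb, a chain of C1q, was at 81.4, 73.0 and 104 RPM in wild-type and at 1827, 184 and 234 RPM in Rnaset2-/- libraries. The groups did not overlap, but with library 1 so far above the others the log2 difference of 2.0 (SE 0.82, adjusted p = 0.0999) was not called, whereas 0.90 (adjusted p = 0.00578) was without it. Stab1 and Stab2, scavenger receptors of macrophages and of sinusoidal endothelium, rose by 2.65 and 4.04.

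Of 15 tested genes for heme and iron recycling, 4 were higher and 2 lower, beside 15.8% and 14.8% of all members. Without Rnaset2-/- library 1 the counts were 5 and 2, beside 17.9% and 19.3% of all members. Hmox1, the enzyme that degrades heme, was at 409, 477 and 911 RPM in wild-type and at 884, 444 and 384 RPM in Rnaset2-/- libraries, with overlapping groups (log2 difference -0.40, SE 0.44, adjusted p = 0.526). Nfe2l2, which encodes the oxidative stress factor NRF2, fell from 330.1, 287 and 324 RPM to 118, 139 and 173 RPM, a log2 difference of -1.46 (SE 0.17, adjusted p = 0.00121).

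Genes of alternative activation were lower in 6 and higher in 1 of 15 tested genes, with a median log2 difference of -1.17. The shares of all members were 14.8% and 15.8%. Without Rnaset2-/- library 1 the counts were 7 and 2, beside 19.3% and 17.9% of all members. Ccl24, a chemokine for eosinophils, fell most of all members, from 220.3, 224 and 129 RPM to 2.46, 0.618 and 1.54 RPM, a log2 difference of -6.50. That size is given without a test because Ccl24 passed the filter only through the wild-type libraries. Ccl17, a chemokine for T cells, went from 11.1, 13.4 and 11.4 RPM to 0.154, 0.154 and 1.23 RPM. Retnla was at 3.16 to 4.0 RPM in wild-type and at no more than 0.154 RPM in Rnaset2-/- libraries. The higher gene was Mrc1, the mannose receptor of macrophages and sinusoidal endothelium, from 26.5, 40.6 and 32.7 RPM to 53.0, 214 and 328 RPM (log2 difference 1.90, SE 0.54, adjusted p = 0.0308). It was not called without Rnaset2-/- library 2 or 3 or any 1 of the wild-type libraries (adjusted p = 0.0699 to 0.105) or with no filter (0.0560).

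The genes of MHC class II presentation and costimulation separated Rnaset2-/- library 1 from the rest. Their sum was 58275 RPM in that library, 14696 and 15433 RPM in Rnaset2-/- libraries 2 and 3 and 19255 to 21038 RPM in the wild-type libraries. H2-Aa was at 2134, 1764 and 1954 RPM in wild-type and at 8041, 1432 and 1500.1 RPM in Rnaset2-/- libraries, and its log2 difference turned from 0.09 (SE 0.67, adjusted p = 0.93) to -0.79 (adjusted p = 0.00765) without library 1. The 3 higher genes, of 13 tested, were H2-DMb2, H2-Ob and H2-Oa, which load peptides or hold loading back, with log2 differences of 2.18, 1.99 and 1.83. H2-Ob, at 9.72, 11.8 and 8.41 RPM in wild-type and 38.2, 60.7 and 61.6 RPM in Rnaset2-/- libraries, and H2-Oa are best known from B cells. The costimulatory gene Cd80 fell by 1.91. Leaving out library 1 gave 3 higher and 6 lower genes, against 3 and 2 with it. The shares of all members were 17.9% and 19.3% without that library and 15.8% and 14.8% with it.

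Of 52 tested genes for lysosomal hydrolases and membrane proteins 7 were lower and 2 higher, beside 14.8% and 15.8% of all members. The median log2 difference was 0.01 and became 0.32 on RPM as deposited. Without Rnaset2-/- library 1, 14 were lower and 4 higher, beside 19.3% and 17.9% of all members. On RPM as deposited, 18 of the 52 lay above all wild-type libraries and 6 below, near the 36.8% and 14.1% of all members. Ctsb, the gene of cathepsin B, was at 2155, 2300.4 and 2177 RPM in wild-type and at 2839.7, 2857 and 2969 RPM in Rnaset2-/- libraries, a log2 difference of 0.07 after scaling (SE 0.22, adjusted p = 0.838). Npc2, which hands cholesterol out of the lysosome, fell from 2811, 2506 and 2602 RPM to 1291, 647 and 568 RPM, a log2 difference of -2.07 (SE 0.37, adjusted p = 0.00603). Naglu, an enzyme of heparan sulfate degradation, rose from 18.7, 17.5 and 21.7 RPM to 126, 52.1 and 54.4 RPM, but was not called without any 1 of the wild-type libraries (adjusted p = 0.0603 to 0.0744).

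Of 20 tested genes for other nucleases and for the handling of nucleosides, into which RNA is broken down, 4 were higher and 1 lower. The shares of all members were 15.8% and 14.8%, and the median log2 difference of the list was 0.19. Without Rnaset2-/- library 1, 3 were higher and 3 lower, beside 17.9% and 19.3% of all members. Slc29a1, a nucleoside transporter of the plasma membrane, rose from 4.63, 6.92 and 3.58 RPM to 25.3, 53.8 and 63.8 RPM, a log2 difference of 2.66 (SE 0.33, adjusted p = 0.00146). Slc29a3, the nucleoside transporter of the lysosome, was at 182, 156 and 136 RPM in wild-type and at 218, 106 and 112 RPM in Rnaset2-/- libraries (log2 difference -0.51, SE 0.33, adjusted p = 0.277). It was lower by 0.89 (adjusted p = 0.00259) without Rnaset2-/- library 1.

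Cell cycle genes were higher in part. Among G2/M genes 24 of 49 tested were higher and 1 lower, with a median log2 difference of 0.87, and among S-phase genes 9 of 35 were higher and 1 lower, with a median of 0.51. The counts were 25 and 11 higher without Rnaset2-/- library 1. Of all members, 15.8% were higher and 14.8% lower, and 17.9% were higher without that library. Mki67, which encodes Ki67, was at 6.02, 11.3 and 16.2 RPM in wild-type and at 34.0, 19.8 and 14.2 RPM in Rnaset2-/- libraries, with overlapping groups (log2 difference 0.67, SE 0.45, adjusted p = 0.282). Ube2c, an enzyme of mitotic exit, rose from 4.48, 11.3 and 11.7 RPM to 54.3, 41.9 and 35.8 RPM, a log2 difference of 1.93 (SE 0.38, adjusted p = 0.00828). Mcm2, a subunit of the replicative helicase, went from 6.41, 11.2 and 9.93 RPM to 33.2, 38.2 and 37.1 RPM, a log2 difference of 1.60 (SE 0.23, adjusted p = 0.00262). The levels stayed low beside spleen, where wild-type Ly6Chi macrophages held 162 to 182 RPM of Ube2c. Cycling lymphocytes or endothelial cells also express these genes, and their part in the rise was not tested.

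Markers of cell types outside the gate rose with the genotype, and these values bear on each group above. The summed T cell markers were 19.5 to 42.5 RPM in the wild-type libraries and 338 to 721 RPM in the Rnaset2-/- libraries. NK cell markers went from 36.4 to 56.0 RPM up to 303 to 767 RPM, and B cell markers from 29.9 to 36.0 RPM up to 216 to 478 RPM. Erythroid markers went from 11.8 to 23.4 RPM up to 91.1 to 185 RPM. Markers of liver sinusoidal endothelial cells went from 318 to 357 RPM up to 1186, 3737 and 4856 RPM. In none of these lists did the genotypes overlap.

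Counted by gene, 12 of 13 tested T cell markers, 9 of 11 NK cell markers, 9 of 9 B cell markers, 4 of 5 erythroid markers and 13 of 15 endothelial markers were higher, and 1 NK cell marker was lower. Many of these passed the filter only because of the Rnaset2-/- libraries, so the counts describe and do not test; without Rnaset2-/- library 1, 6 T cell markers passed and 5 were higher. In bulk libraries more cells of a type and more of its RNA per cell cannot be told apart. Markers of hepatocytes (0 of 11 called) and stellate cells (0 of 5) were not called, with sums of 48.2 to 54.3 RPM in wild-type and 28.2 to 91.4 RPM in Rnaset2-/- libraries for hepatocytes. Neutrophil markers were 439.8, 2663 and 1983 RPM in wild-type and 412, 1957 and 1144 RPM in Rnaset2-/- libraries, and 2 of 14 were lower. Of the other lists, 4 of 13 markers of conventional dendritic cells were higher and 2 lower, 2 and 2 of 9 of plasmacytoid dendritic cells, 2 and 2 of 6 of plasma cells, 1 and 1 of 6 of eosinophils, 3 and 0 of 6 of basophils and mast cells, 3 and 0 of 3 of platelets, and 0 and 2 of 11 of macrophages and monocytes. The shares of all members were 15.8% higher and 14.8% lower, and these short lists are described and not tested.

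Cd3e, a chain of the T cell receptor complex, was listed at 0, 0.167 and 0 RPM in wild-type and at 86.6, 82.5 and 30.2 RPM in Rnaset2-/- libraries, a log2 difference of 5.70. It is given without a test because Cd3e, like Clec4f, passed the filter only through the Rnaset2-/- libraries, and on log2(RPM + 1) the difference of such a gene depends on the added 1. Gzma, a granule protease of NK and T cells, rose from 8.80, 3.92 and 4.2 RPM to 20, 94.7 and 141 RPM. Pax5, the master factor of B cells, went from at most 1.58 RPM to 26.9, 41.6 and 67.8 RPM. Klrb1c, the gene of the gate antigen NK1.1, was at 3.32, 3.92 and 0.984 RPM in wild-type and at 5.22, 58.6 and 89.6 RPM in Rnaset2-/- libraries. Its log2 difference of 2.95 is given without a test because Klrb1c passed the filter only through the Rnaset2-/- libraries. Rnaset2-/- libraries 2 and 3 thus held more of a transcript whose protein the gate selects against. Siglecf, another gate antigen that like Klrb1c is named outside the rule for named genes, stayed at 0.998 to 4.47 RPM in all libraries.

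Pecam1, the endothelial adhesion molecule CD31, was at 40.7, 40.9 and 38.1 RPM in wild-type and at 131, 754 and 643 RPM in Rnaset2-/- libraries, a log2 difference of 2.98 (SE 0.54, adjusted p = 0.00611). Clec4g, a lectin of sinusoidal endothelium, rose from 22.3, 36.9 and 33.7 RPM to 99.4, 447 and 689.9 RPM. Sparc, a matrix protein made by endothelium and stroma, rose from 1.54, 6.26 and 0.895 RPM to 70.1, 231 and 233 RPM, and Ltbp4, Flt4 and Nid1 were among the 10 genes with the largest rise, by 4.84, 4.82 and 4.66. Rnaset2-/- library 1 was the lowest of the 3 in each of these genes, while it was the highest in MHC class II genes and in C1qb. The genes of the endothelial list were also abundant in the KC libraries, at 5704 to 12936 RPM in sum.

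**Figure D4:**
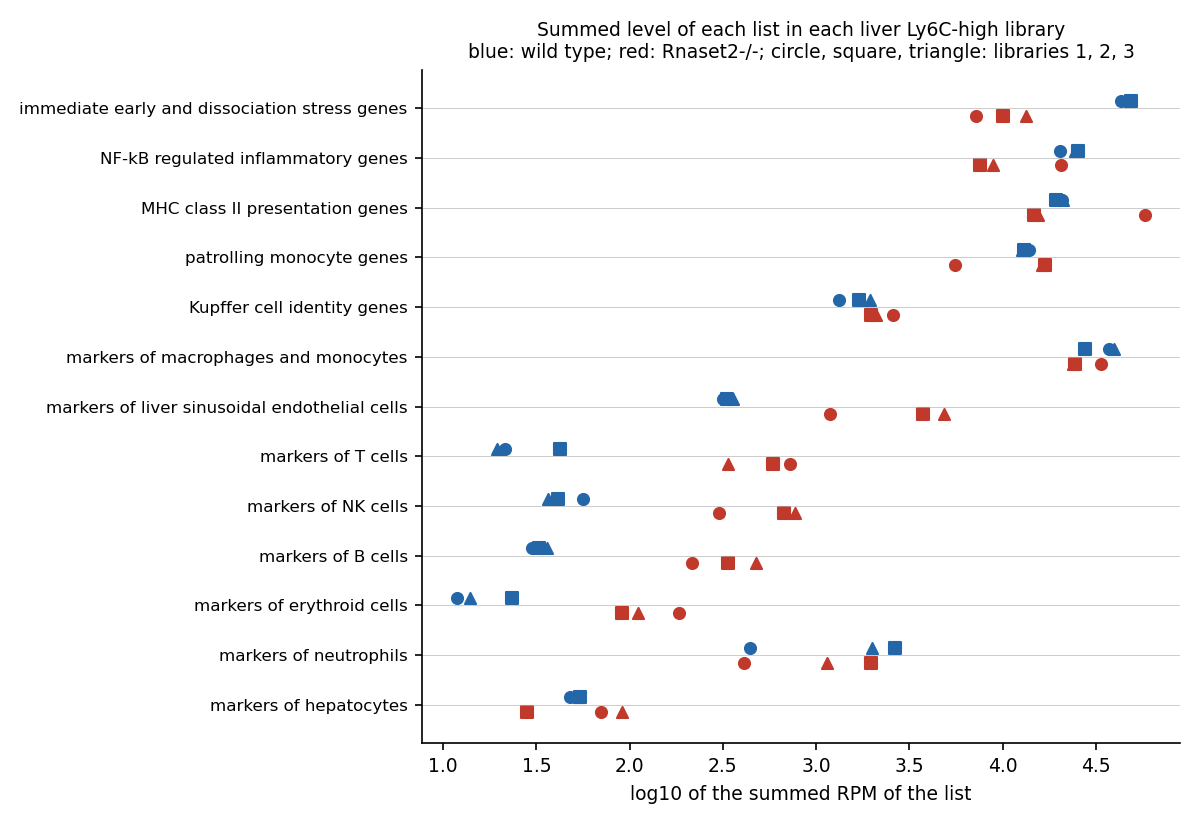
The x axis is the summed level of each list in each of the 6 hepatic Ly6Chi libraries, as log10 of RPM; blue is wild type, red is Rnaset2-/-, and circle, square and triangle are libraries 1, 2 and 3. T cell, NK cell, B cell, erythroid and endothelial markers lay higher in all 3 Rnaset2-/- libraries and immediate early genes lower, whereas MHC class II genes set Rnaset2-/- library 1 apart.

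Whether the difference between the genotypes was the same in the spleen was tested with the interaction of organ and genotype, over 6 hepatic and 6 splenic Ly6Chi libraries. It passed >1.5-fold with an adjusted p below 0.05 for 3675 of 10963 genes (33.5%), of which 1937 (17.7%) were more positive in the liver and 1738 (15.9%) more negative. In 2384 of them the genotype effect had opposite signs in the organs. The splenic Ly6Chi libraries of both genotypes held 352.5 to 611.7 RPM of Xist, so sex is a difference between the organs' comparisons as well. Libraries of a group correlated at 0.9945 to 0.9976 in the spleen and at 0.969 to 0.9912 in the liver (log2 RPM). The fit took 1 spread per gene over all 12 libraries, so its p-values do not account for that difference. Splenic Rnaset2-/- libraries held 20404155 to 21167602 reads, and splenic wild-type ones 14280906 to 14415756.

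For Fos the splenic difference was -0.60 and the hepatic one -4.24, and the interaction was -3.61 (SE 0.32, adjusted p = 7.65e-06). Of the immediate early genes 29 were more negative in the liver and 1 more positive, and of the NF-κB genes 25 and 3. In the spleen the summed immediate early genes were at 25755 to 25941 RPM in wild-type and at 14271 to 17950.0 RPM in Rnaset2-/- libraries. The hepatic wild-type libraries (43325 to 49002 RPM) were thus above all splenic ones, and the hepatic Rnaset2-/- libraries (7213 to 13386 RPM) below all of them. The study's methods prepared the organs differently, with a heated dissociator for livers and mincing for spleens, and the part of dissociation in these levels was not tested.

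Most lymphocyte markers were higher in the liver, whereas 13 of 13 T cell, 11 of 11 NK cell and 2 of 9 B cell markers were lower in the spleen. The study's methods depleted lymphocytes from splenocytes before the sort and name no such step for livers. Cd3e was at 39.7 to 44.5 RPM in wild-type and 2.06 to 7.89 RPM in Rnaset2-/- splenic Ly6Chi libraries, a difference of -3.11. The interaction of 8.87 was the largest among the named genes. It is given without a test, like the hepatic difference it contains. All 13 T cell, 11 NK cell and 9 B cell markers tested were more positive in the liver. Many of them were members only through the hepatic Rnaset2-/- libraries, so these counts describe and do not test. Cd5l, too, went the other way in the spleen, from 15.6 to 18.4 RPM down to 3.87 to 8.68 RPM (interaction 7.61, also given without a test). Il1b rose in the spleen by 1.30 and fell in the liver (interaction -2.75, SE 0.26, adjusted p = 1.29e-05). Ccr2 rose in the spleen by 0.77 (interaction -1.31, SE 0.29, adjusted p = 0.00474). Fcgr4 rose in both organs, by 1.92 in the spleen, and its interaction of 0.84 (SE 0.32, adjusted p = 0.0602) was not called. G2/M genes rose by a median of 1.22 in the spleen, and 11 of them were more positive there and 0 in the liver.

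**Figure D5:**
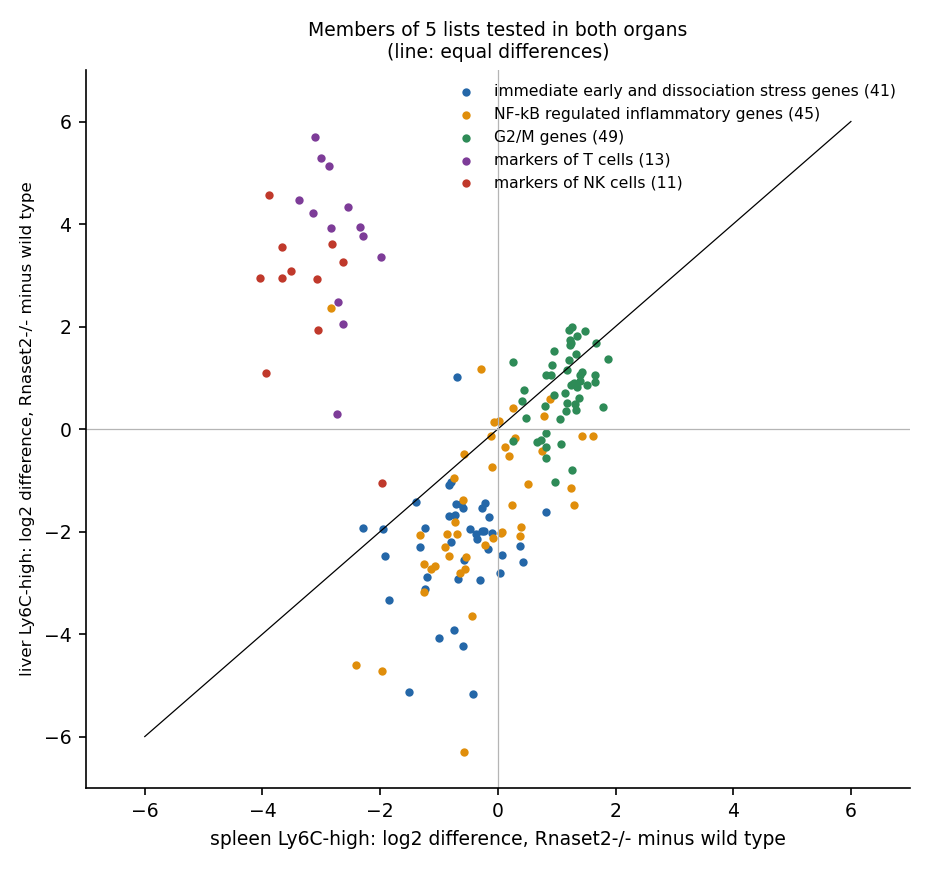
Each point is a gene of 5 lists tested in both organs, with the log2 difference, Rnaset2-/- minus wild type, in splenic Ly6Chi macrophages on the x axis and in hepatic Ly6Chi macrophages on the y axis; the line marks equal differences. Immediate early genes such as Fos (-0.60 and -4.24) lie below the line, most T and NK cell markers, such as Cd3e (-3.11 and 5.70), lie at the upper left, and most G2/M genes lie nearer to the line.

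Within the liver, the interaction of subset and genotype compared Ly6Chi with Ly6Clow macrophages and passed the same thresholds for 1265 of 12114 genes (10.4%), 637 (5.26%) more positive in Ly6Chi and 628 (5.18%) more negative. Of the immediate early genes 14 had a more positive effect in Ly6Chi macrophages and 0 a more negative one. Jun differed by -2.30 in Ly6Chi and -5.12 in Ly6Clow macrophages (interaction 2.80, SE 0.35, adjusted p = 0.000774). Cxcr4 likewise fell by 2.60 and by 6.95 (interaction 4.32, SE 0.46, adjusted p = 0.000324).

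Of the genes of KC identity 6 were more negative in Ly6Chi macrophages and 1 more positive. Nr1h3 and Rxra rose in Ly6Clow macrophages by 4.11 and 2.44, and the interactions were -3.57 (SE 0.46, adjusted p = 0.000774) and -2.84 (SE 0.35, adjusted p = 0.000706). Cd5l rose in both, by 6.98 in Ly6Clow cells, where it reached 5478 to 9639 RPM. Its interaction of -0.67 is given without a test, like its rise in Ly6Chi cells. The level in Ly6Chi cells was 152 to 348 RPM. Of the lysosomal genes 12 were more negative in Ly6Chi macrophages and 1 more positive, and of the interferon-stimulated genes 8 and 0. Il12b rose by 4.32 in Ly6Chi macrophages and differed by -0.12 in Ly6Clow cells. The interaction of 4.42 is given without a test, like the rise it contains. Retnla was a gene of wild-type Ly6Clow cells and fell by 8.71 there, so its interaction was 6.42. With 1 added to RPM, the low level of Retnla in wild-type Ly6Chi cells limits its fall there. The interaction is therefore given without a test. Without Rnaset2-/- Ly6Chi library 1, 2335 genes passed in place of 1265. The count was 756 without Rnaset2-/- Ly6Chi library 2, 733 without library 3, 790 and 780 without wild-type Ly6Chi library 1 or 3, 783 without Rnaset2-/- Ly6Clow library 2, and 797 and 668 without wild-type Ly6Clow library 2 or 3.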

How the data were processed

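The authors amplified RNA of sorted macrophages by AmpliSeq, a panel of 1 short amplicon per gene, sequenced it on the Ion Proton and mapped the reads in Torrent Suite, where the AmpliSeqRNA plug-in counted them. What the authors deposited is a table of RPM, in which each library sums to the same total; the labels give the build mm10. All 29 columns belong to the series and 0 were set aside. Every value was a whole number of reads within 0.1 reads, which gave the depth of each library.

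The members, gene lists and alternatives were chosen with earlier results of these data known. Relative log expression factors of the 6 libraries were taken out of the RPM. Genes at 1 RPM or more in 3 libraries (10957, including 330 on X or Y and 85 without a chromosome or mitochondrial) entered limma 3.58.1 (lmFit and eBayes with trend, R 4.3.3) as log2(RPM + 1), so differences of low genes are understated. Tests were two-sided with Benjamini-Hochberg adjustment over all of them; a call required >1.5-fold and an adjusted p below 0.05. Levels are RPM as deposited. An exact permutation test of 3 against 3 libraries cannot give a p below 0.1 and was not used. Interactions were fitted over 12 libraries. The deposited unit is not a count, so edgeR 4.0.16 and DESeq2 1.42.0 on the recovered reads were alternatives. The others were TMM factors, RPM as deposited, an added 0.1, no filter, >2-fold, 1 fit of 29 libraries, the replicate number as a block, and leaving out each library.

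Chromosomes come from GENCODE vM21 by symbol (21334 genes) and RefSeq (969 by symbol and 430 by synonym), and 1197 genes had none. Named genes were the 10 largest calls in each direction at 10 RPM or more without overlap, fixed key genes and the 4 largest calls of each list, the 3 highest markers of each cell type, the study's RNA-seq genes, and 5 genes in each direction of each interaction. Genes of RNase T2 and of Ly6C were not analysed here, and some named genes are not reported here.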

Additional observations from a re-analysis of the deposited data

Results flagged for a closer look

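The effect of genotype differed between hepatic and splenic Ly6Chi macrophages for 3675 genes, and between hepatic Ly6Chi and Ly6Clow macrophages for 1265 genes, by the interaction terms in limma. Between the organs the largest terms that were more positive in the liver were those of Cd3e (8.87), Il2rb (8.49), Gimap3 (8.41), Lck (8.34) and Thy1 (8.05), which are genes of T or NK cells. Thy1, for example, went from 1.43 to 2.92 RPM up to 90.9 to 175 RPM in the liver and from 126 to 141 RPM down to 12.3 to 27.3 RPM in the spleen. The largest terms in the other direction were those of Cd83 (-5.71), Ccl24 (-5.46), Thbs1 (-5.35), Trpc4ap (-4.82) and Egr1 (-4.71). Thbs1 had a difference of -0.38 in the spleen (adjusted p = 0.182) and of -5.76 in the liver.

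Between the hepatic subsets the largest terms that were more positive in Ly6Chi macrophages were those of H2-M2 (7.15), Klri1 (6.57), Apol7c (6.53), Retnla (6.42) and Cacnb3 (6.26). Klri1, a receptor of NK cells, rose in Ly6Chi macrophages by 1.88 and fell in Ly6Clow macrophages by 4.70. Apol7c rose by 3.50 in Ly6Chi and fell by 3.05 in Ly6Clow macrophages, with 146, 18.0 and 31.4 RPM in Rnaset2-/- Ly6Chi libraries 1 to 3. The largest terms in the other direction were those of Lipg (-5.07), Tmc3 (-4.58), Lox (-4.38), Raver2 (-4.17) and Ociad2 (-4.03). Lipg, which encodes endothelial lipase, was at 3.69, 9.42 and 6.77 RPM in Rnaset2-/- Ly6Chi libraries and at 74.8 to 264 RPM in Ly6Clow libraries. These genes were picked for the size of their interaction, so the sizes are descriptions.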

How the results depend on the processing

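RPM as deposited gave 2583 genes higher and 860 lower, and >2-fold left 946 lower. Leaving out 1 library in turn gave 661 to 1801 higher genes (lowest without Rnaset2-/- library 2, highest without Rnaset2-/- library 1), 857 to 1940 lower genes (without wild-type library 3 and Rnaset2-/- library 1), 2908 to 4419 genes in the interaction with organ (without splenic wild-type library 3 and Rnaset2-/- library 1) and 668 to 2335 in that with subset (without wild-type Ly6Clow library 3 and Rnaset2-/- library 1). The cause was not tested beyond the smaller number of libraries. Among the 176 named genes, the direction reversed into a call without Rnaset2-/- library 1 for Cx3cr1 (0.65) and H2-Aa (-0.79). Reversals without a call in either setting were not counted. Leaving out 1 library in turn gave -0.43 to 0.65 for Cx3cr1 and -0.79 to 0.55 for H2-Aa. Over all alternatives 2267 values of named genes kept their side of the threshold, including any changes of sign where neither setting made a call. A further 35 passed it newly in the same direction, and 130 no longer did. Of the medians of lists, 414 moved by less than 1 SD between libraries and 76 by more. edgeR called 1681 genes higher and 1434 lower, and DESeq2 1917 and 1733. With the replicate number as a block 1404 genes were higher and 1285 lower, of which 1353 and 1249 were called without it, and the interactions held 3530 and 1319 genes. Equal numbers of the genotypes did not deviate together (correlations of -0.003, -0.014 and 0.084). Between Ly6Chi and Ly6Clow macrophages they did for Rnaset2-/- libraries (0.52, 0.23 and 0.44) and for wild-type library 1 (0.56) but not for wild-type libraries 2 and 3 (-0.12 and -0.16). A block within genotype, chosen after seeing the data, gave 1867 genes for the interaction with subset. DESeq2, edgeR, TMM, >2-fold and the fit of 29 libraries were run for the comparison of genotypes and not for the interactions.

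Depth limits genes near 3 reads (0.230 to 0.268 RPM), such as Clec4f in wild-type libraries. Genotype and sex cannot be told apart, and 3 libraries a group leave the spread of Rnaset2-/- library 1 in every p-value.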

Other observations

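The values below were picked out after they were seen, and no explanation was tested. Pancreatic enzyme genes were high in 1 Ly6Chi library: Ctrb1, chymotrypsinogen, was at 0.614, 0 and 243 RPM in Rnaset2-/- libraries 1 to 3 and at no more than 2.59 RPM in wild-type libraries, and Cela2a and Cpa1 were at 155 and 83.6 RPM in Rnaset2-/- library 3. KC libraries 1 and 4 held 2117 and 1086 RPM of Ctrb1, and KC libraries 2 and 3 held 16.1 and 22.0 RPM.

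Rnaset2-/- Ly6Chi library 1 and Rnaset2-/- Ly6Clow library 1 shared high levels of genes induced by interferon-γ. Nos2 was at 295, 6.95 and 5.31 RPM in Rnaset2-/- Ly6Chi libraries 1 to 3 and at 44.0, 0.623 and 1.07 RPM in Ly6Clow libraries 1 to 3. Cxcl9 was at 5576, 583 and 642 RPM and at 1880, 127 and 386 RPM, and Gbp2 at 1059, 138 and 134 RPM and at 455, 131 and 92.9 RPM. Wild-type Ly6Chi libraries held 1890 to 2371 RPM of Cxcl9.

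A few broadly expressed genes were high in hepatic wild-type libraries with a common order. Trpc4ap was at 78.1, 24.2 and 88.8 RPM in wild-type Ly6Chi libraries 1 to 3 and at 2.61, 2.01 and 2.08 RPM in Rnaset2-/- libraries, and Pfdn5, a prefoldin subunit, at 212, 61.8 and 312 RPM and at 14.4, 12 and 11 RPM. Qrich1 and Chuk had the same order, with 66.4, 26.5 and 75.9 RPM and 29.1, 13.4 and 32.7 RPM in wild-type libraries. Casp4, given above among inflammasome genes, had it too, with 55.0, 13.1 and 64.6 RPM. Splenic wild-type Ly6Chi libraries held 2.08 to 2.52 RPM of Trpc4ap.

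Tlr13, a receptor of bacterial RNA that lies on the X chromosome and was not a member, was at 23.5, 25.6 and 23.0 RPM in wild-type and at 29.6, 81.6 and 52.5 RPM in Rnaset2-/- Ly6Chi libraries. Splenic Ly6Chi libraries held 44.8 to 47.1 RPM in wild-type and 97.0 to 157 RPM in Rnaset2-/- mice.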
